A study of Mus musculus with 90 samples.

Results

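The comparison of estrus with diestrus in mouse spleen rested on 6 of the 90 libraries of the series, those whose sample label gives spleen as the tissue. They were 3 libraries from estrus mice and 3 from diestrus mice, against 84 libraries from 14 other tissues. All mice were unmanipulated females, C57BL/6 and 10 weeks old by the labels and named C57BL/6J in the study, kept under a regular light and dark cycle, and their phase was read from vaginal secretions stained with methylene blue. No transgene, treatment or surgery was part of either group, and nothing in the labels ties a spleen library to a litter or a batch. Expression is given as FPKM, the number of fragments scaled to transcript length and to the fragments mapped in the library. A gene was tested where its spleen mean reached 1 FPKM, which left 12536 of the 20414 genes listed. Differences are estrus minus diestrus on the log2(FPKM + 1) scale, so a positive log2 fold change (log2FC) is higher in estrus and the change of a low gene is understated.

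Estrus is the phase of sexual receptivity around ovulation, which follows the peak of estrogen, and diestrus is the phase in which progesterone prevails. The spleen filters blood in its red pulp, where macrophages take up old red cells and, in mice, red cells, platelets and neutrophils are also made throughout life. Its white pulp holds B cells and T cells in follicles and sheaths, built on stromal cells that secrete the chemokines Cxcl13, Ccl19 and Ccl21a. Neutrophils are short-lived phagocytes that make their granule proteins in waves while they mature, so that the mRNA of proteases such as elastase marks young stages and the mRNA of S100a8 and S100a9 marks later ones.

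The libraries carried the genes of a spleen. Cd79a and Ms4a1 of B cells, Cd3e of T cells, Cr2 of follicles, Spic of red pulp macrophages, Tlx1 of spleen stroma and Cxcl13 were each higher in the lowest spleen library than in any library of another tissue, whereas Nkx2-5 was higher in heart. The table holds no read totals. Steps between the FPKM of 933 short genes placed the depth at 14.6 to 15.7 M reads (megareads) per spleen library, but only 61.9% to 67.1% of these values lay within 0.2 reads of a whole number, so read counts were not recovered and the depth is an approximation. The study's methods give a higher number of reads per sample. Estrus replicate 2 stood apart from the rest. It held 59 genes at least 2-fold above every other spleen library, against 0 to 3 genes in the others, and its mean correlation with the others across genes was 0.961, against 0.981 to 0.984. Results that rest on it are given with and without it.

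The genes that set estrus replicate 2 apart were those of pancreatic acini, the cells that secrete digestive enzymes. The summed FPKM of 26 acinar genes was 11228 in estrus replicate 2, 34.1 and 8.4 in the other estrus libraries, and 7.26, 11.01 and 9.24 in diestrus. Amy2a5, a pancreatic amylase, was listed at 2688 FPKM in estrus replicate 2, at 5.46 in estrus replicate 1 and at 0 in the remaining 4 libraries. The chymotrypsinogen gene Ctrb1 was at 1532 FPKM there and at no more than 2.08 elsewhere, and the elastase gene Cela2a at 1021 FPKM and at no more than 2.26. Pnlip, Try4, Clps, Cpb1 and Cela3b, which encode a lipase, a trypsin, colipase, a carboxypeptidase and another elastase, were at 742, 574, 562, 387 and 339 FPKM in that library and at no more than 1.33 FPKM in any other. Estrus replicate 1 was the next highest library for all of these enzymes. None of the 23 acinar genes tested was called, and all 23 were higher in estrus with and without estrus replicate 2, with a median log2FC of 2.93 and 0.31. Genes such as Cpb1, Cela3b and Try4 reached a mean of 1 FPKM only through estrus replicate 2. The filter was not applied again without that library, so the count of genes higher in estrus is no separate support. No gene of 12 for pancreatic islets reached a mean of 1 FPKM, and their summed FPKM was 0.5, 0.8 and 0.3 in estrus against 0.2, 0.3 and 0.3 in diestrus. Bhlha15, a transcription factor of secretory cells, was at 2.17, 4.09 and 2.18 FPKM in estrus and at 1.66, 2.57 and 1.70 in diestrus. Tff2, a peptide of gastric and pancreatic secretions, was at 26.1 FPKM in estrus replicate 2 and at most 1.33 in the others. The acinar level was carried almost wholly by estrus replicate 2, while estrus replicate 1 also lay above diestrus and estrus replicate 3 lay within it.

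**Figure D1:**
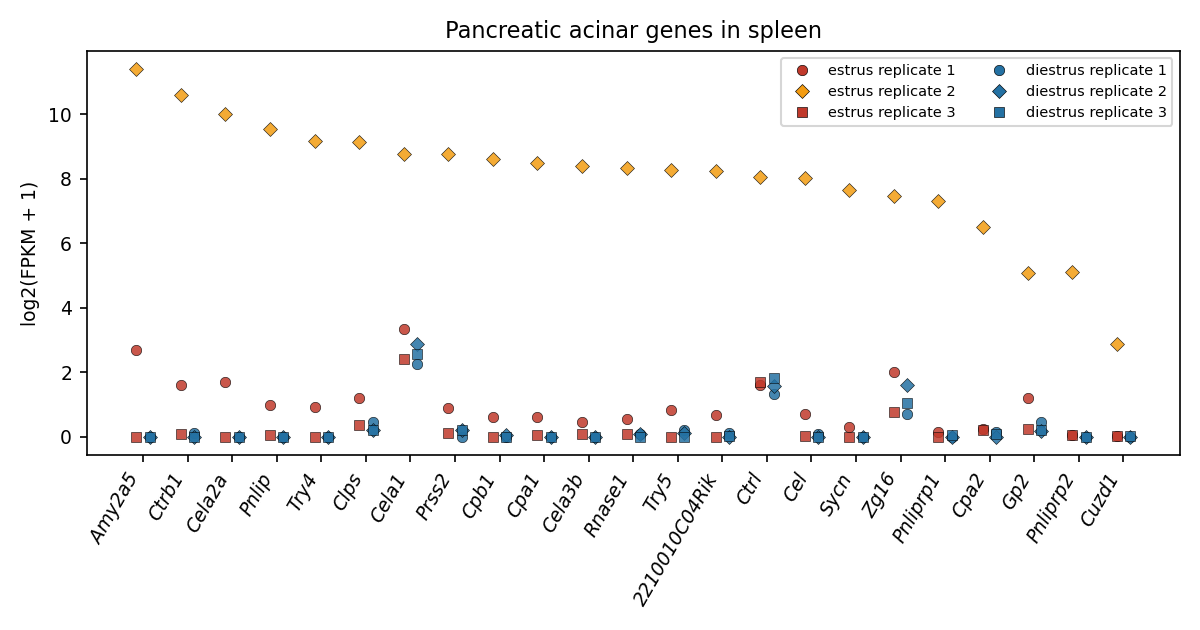
Level of the 23 tested pancreatic acinar genes, as log2(FPKM + 1) on the vertical axis, in each of the 6 spleen libraries (red and orange for estrus, blue for diestrus; orange diamonds are estrus replicate 2). Estrus replicate 2 lies far above the other 5 libraries for every gene, with Amy2a5 at 2688 FPKM.

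One gene passed the limits for a differentially expressed gene (DEG), an adjusted p of at most 0.05 and a log2FC of at least 1 in size, which is 0.00798% of the genes tested. It was H4c18 (Entrez Gene 319161), which encodes histone H4, a core protein of the nucleosome that is made mainly while DNA is copied. Its level was 4.94, 4.30 and 3.98 FPKM in estrus, and every diestrus library listed it at 0 (limma with Benjamini-Hochberg adjustment, adjusted p = 0.000939). No fold is given against a group listed at 0. The estrus values correspond to about 31.7, 28.1 and 26.9 reads at the approximated depth. H4c18 was the only gene listed at 0 throughout a phase and at 1 FPKM or more throughout the other. Every other gene had an adjusted p of 0.930 or more, while 228 genes higher in estrus (1.82% of those tested) and 212 lower (1.69%) had an unadjusted p under 0.05.

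The value of H4c18 depends on how reads were divided among near-identical histone genes. Of the 381 windows of 50 bases in its 430-base transcript, 326 (85.6%) also occur in transcripts of 10 other genes. Summed over the 13 listed H4 genes, the level was 32.5, 20.1 and 24.8 FPKM in estrus and 12.99, 21.94 and 17.97 FPKM in diestrus. These sums overlapped, since estrus replicate 2 lay below diestrus replicate 2. Without H4c18 the sums were 27.5, 15.8 and 20.8 FPKM against 12.99, 21.94 and 17.97 FPKM, and these overlapped as well. In the other tissues H4c18 was scattered between 0 and 4.36 FPKM, with the highest value in a uterus library, and was above 0 in 0 to 5 of the 6 libraries of a tissue. Spleen was the only tissue in which its levels of the phases did not overlap.

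Other histone genes that are made during DNA replication are known for the same peak in S phase. How fully the library kit captures the mRNA of these genes was not tested. Of 62 listed, 16 were tested, 13 were higher in estrus, and the median log2FC was 0.27, or 0.35 without estrus replicate 2, against -0.01 and 0.01 over all genes tested. H4c18 and H1f4 reached a mean of 1 FPKM only through their estrus values. With no filter on low values the median of the list was 0.20. Besides H4c18, 3 were free of overlap with a log2FC of at least 0.5, as were 53 of all genes tested (0.423%). H1f2, a linker histone, was at 16.4, 12.7 and 13.3 FPKM in estrus and at 7.26, 9.38 and 10.7 in diestrus (log2FC 0.59, SE 0.15). H1f4, another linker histone, was at 2.60, 0.90 and 2.27 FPKM against 0.19, 0.70 and 0.27 (log2FC 1.04, SE 0.26). H4c4 was at 3.36, 3.12 and 3.25 FPKM against 2.28, 0.62 and 1.65 (log2FC 0.81, SE 0.24). None of these 3 passed the adjusted test. The most abundant histone gene, H2ac24, was at 394, 402 and 438 FPKM in estrus and at 264, 532 and 261 in diestrus, with diestrus replicate 2 above all estrus libraries. The 40 genes of the cell cycle, 27 of them higher in estrus, had a median log2FC of 0.05. Among them Ube2c, a ubiquitin-conjugating enzyme of mitosis, was at 97.0, 129 and 126 FPKM in estrus and at 70.8, 125 and 76.8 FPKM in diestrus, where replicate 2 again stood above the other diestrus libraries.

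**Figure D2:**
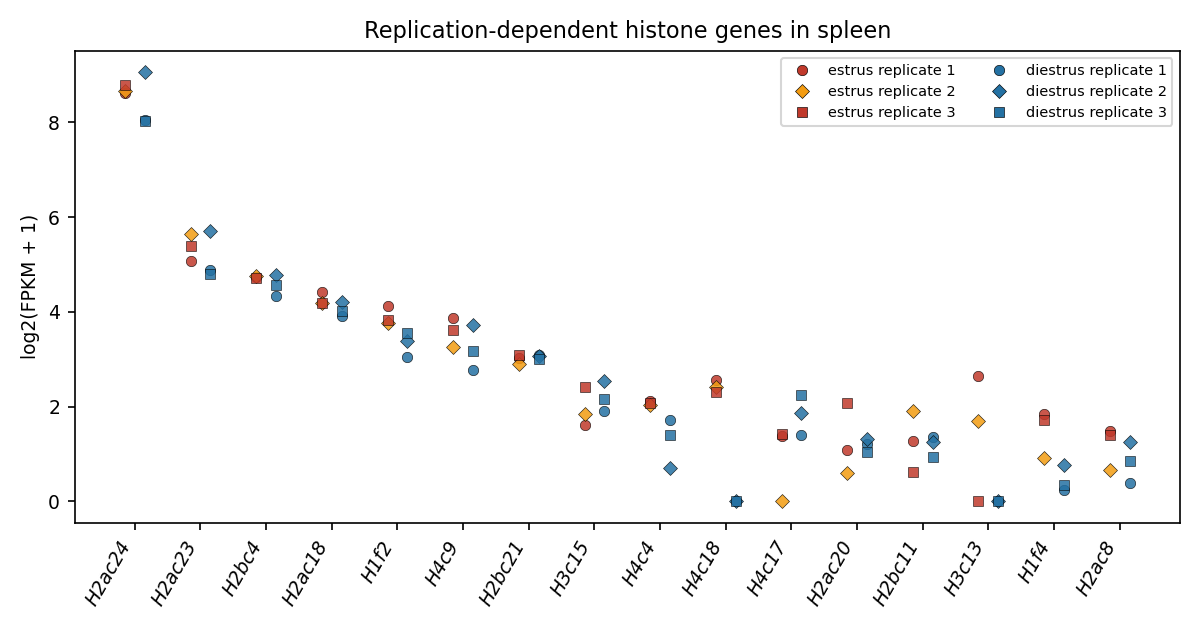
Level of the 16 tested replication-dependent histone genes, as log2(FPKM + 1) on the vertical axis, in each spleen library (red and orange for estrus, blue for diestrus, diamonds for replicate 2). H4c18 is at 0 in the 3 diestrus libraries, and for H2ac24 diestrus replicate 2 lies above the 3 estrus libraries.

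Of the gene lists, that of neutrophils and their granule proteins held the most genes free of overlap between the phases. All 20 genes of the list were tested and all 20 were higher in estrus, with a median log2FC of 0.99, against -0.01 over all genes tested. Cebpe, Mmp8 and Ly6g reached a mean of 1 FPKM only through estrus replicate 2, and the filter was not applied again without it. The filter removed no member, so the median was also 0.99 with no filter. The 3 estrus libraries lay above the 3 diestrus libraries with a log2FC of at least 0.5 for 15 of the 20, against the same 0.423% of all genes. Without estrus replicate 2 all 20 were still higher, the median was 0.57 and 9 of 20 were free of overlap by the same rule, against 37 of all genes (0.295%). None of the 20 was called, as no adjusted p fell under 0.930, and 15 had an unadjusted p under 0.05. The summed FPKM of the list was 575, 1756 and 543 in estrus and 240, 367 and 367 in diestrus. In bulk tissue, fewer cells of a type and less RNA per cell cannot be told apart.

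Promoters of 5 of these genes are shown because the genes were higher side by side and because their promoters hold short motifs of factors known for granulocyte development. They are RefSeq sequences of build GRCm38.p6, each from 250 bases before to 50 bases after the start of the gene, read along the gene's strand. Capitals mark TTGCNNAA, a form of the site bound by C/EBP factors, and GAGGAAGT, a form of the site bound by PU.1, on either strand.
Ngp (chr9:110419558-110419857, plus strand): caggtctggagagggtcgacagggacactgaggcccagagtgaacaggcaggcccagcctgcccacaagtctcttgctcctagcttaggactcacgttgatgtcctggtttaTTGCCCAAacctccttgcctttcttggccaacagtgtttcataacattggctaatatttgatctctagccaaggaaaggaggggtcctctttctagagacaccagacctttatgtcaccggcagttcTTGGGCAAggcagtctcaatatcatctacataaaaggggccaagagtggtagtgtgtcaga
Lcn2 (chr2:32387690-32387989, minus strand): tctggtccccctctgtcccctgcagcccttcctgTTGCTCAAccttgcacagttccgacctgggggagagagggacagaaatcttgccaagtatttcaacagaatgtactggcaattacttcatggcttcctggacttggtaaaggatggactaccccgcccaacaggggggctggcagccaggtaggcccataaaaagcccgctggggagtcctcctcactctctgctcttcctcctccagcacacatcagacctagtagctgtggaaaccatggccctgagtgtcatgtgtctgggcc
S100a9 (chr3:90695672-90695971, minus strand): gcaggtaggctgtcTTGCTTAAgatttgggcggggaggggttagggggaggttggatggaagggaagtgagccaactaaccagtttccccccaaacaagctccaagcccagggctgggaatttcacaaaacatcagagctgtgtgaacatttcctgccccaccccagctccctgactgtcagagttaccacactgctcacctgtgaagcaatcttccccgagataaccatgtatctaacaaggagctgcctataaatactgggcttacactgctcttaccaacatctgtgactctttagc
S100a8 (chr3:90668821-90669120, plus strand): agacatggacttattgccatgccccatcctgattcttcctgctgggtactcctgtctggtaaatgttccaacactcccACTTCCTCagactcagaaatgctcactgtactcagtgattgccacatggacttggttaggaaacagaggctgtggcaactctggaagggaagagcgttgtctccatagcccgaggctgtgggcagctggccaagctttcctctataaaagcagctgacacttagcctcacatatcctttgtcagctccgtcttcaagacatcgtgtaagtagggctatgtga
Prtn3 (chr10:79879417-79879716, plus strand): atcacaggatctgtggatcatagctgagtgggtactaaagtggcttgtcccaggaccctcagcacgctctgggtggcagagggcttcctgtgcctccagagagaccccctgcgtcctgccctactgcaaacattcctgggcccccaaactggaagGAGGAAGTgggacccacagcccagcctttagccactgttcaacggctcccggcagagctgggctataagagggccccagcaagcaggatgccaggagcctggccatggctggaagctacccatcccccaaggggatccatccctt

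Of the 20 genes, 17 had a promoter in the RefSeq table, as had 10024 of the genes tested. TTGCNNAA occurred in 7 of the 17 (Lcn2, Ltf, Ly6g, Mmp8, Ngp, Retnlg and S100a9) and in 10.4% of the 10024. GAGGAAGT occurred in 6 of the 17 (Elane, Ly6g, Mmp8, Mpo, Prtn3 and S100a8) and in 4.0% of the 10024. In Ngp the C/EBP motif was found at -138 and at -11 bases from the start, in Lcn2 at -216 and in S100a9 at -236. The PU.1 motif lay at -172 in S100a8 and at -95 in Prtn3. Of 8 motifs counted in all, the shorter GAGGAA was in 11 of 17 against 30.9% and the looser TTNCNNAA, which includes TTGCNNAA, in 10 of 17 against 36.5%. The single-arm estrogen receptor motif TGACCT was in 5 of 17 against 15.0%, the palindrome of the estrogen response element in 0 of 17 against 0.00998%, the GATA motif GATAA in 3 of 17 against 19.9% and the RUNX motif AACCACA in 0 of 17 against 4.75%. These are matches of letters in short windows and say nothing on whether a factor was bound.

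Among the cytosolic proteins of mature neutrophils, S100a8, which forms calprotectin with S100a9, was at 96.4, 278 and 106 FPKM in estrus and at 41.8, 53.2 and 59.8 FPKM in diestrus. Its lowest estrus library was above its highest diestrus library, and log2FC was 1.46 (SE 0.38) or 0.97 without estrus replicate 2. S100a9 was at 156, 497 and 167 FPKM against 64.7, 96.9 and 108 FPKM (log2FC 1.41, SE 0.43; 0.87 without estrus replicate 2). Retnlg, a secreted resistin-like protein of neutrophils, was at 4.73, 14.2 and 8.62 FPKM against 1.46, 3.15 and 4.37 FPKM. For these 3 genes estrus replicate 2 was the highest library, and the other estrus libraries were also above diestrus. In Retnlg the gap was small, with estrus replicate 1 at 4.73 FPKM and diestrus replicate 3 at 4.37 FPKM.

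The proteins of specific granules, which are loaded in the middle of maturation, followed the same order. Ngp, neutrophilic granule protein, was at 106, 391 and 80.0 FPKM in estrus and at 39.6, 70.3 and 62.7 in diestrus (log2FC 1.40, SE 0.55; 0.71 without estrus replicate 2). Camp, the precursor of an antimicrobial peptide, was at 60.2, 174 and 58.6 FPKM against 24.8, 39.5 and 39.5. Lcn2, a lipocalin that binds bacterial iron carriers, was at 26.8, 105 and 26.9 FPKM against 12.03, 16.04 and 16.21. For Camp and Lcn2 estrus replicates 1 and 3 were almost level with each other, and estrus replicate 2 was 2 to 4 times higher than either. Ltf, the iron-binding lactoferrin, was at 11.1, 50.8 and 10.8 FPKM against 5.28, 8.06 and 6.74. Chil3, a chitinase-like protein, was at 18.4, 52.2 and 11.5 FPKM against 5.07, 6.91 and 9.58 (log2FC 1.56, SE 0.49; 0.97 without estrus replicate 2). The gelatinase Mmp9 of the latest granules was at 2.54, 5.46 and 2.32 FPKM against 1.56, 1.66 and 1.63, and the collagenase Mmp8 at 1.15, 2.73 and 1.16 FPKM against 0.40, 0.37 and 1.04.

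The serine proteases and the peroxidase of azurophil granules mark the earliest stages. Prtn3, proteinase 3, was at 8.87, 25.5 and 8.62 FPKM in estrus and at 4.23, 8.45 and 5.23 in diestrus, and Ctsg, cathepsin G, at 2.85, 9.15 and 3.16 FPKM against 1.19, 2.37 and 2.63. Elane, neutrophil elastase, was at 10.9, 46.8 and 9.71 FPKM against 4.39, 13.7 and 6.69, and diestrus replicate 2 exceeded estrus replicates 1 and 3. Mpo, myeloperoxidase, overlapped in the same way, at 7.87, 37.1 and 6.96 FPKM against 3.70, 10.9 and 5.45, and its log2FC was 0.97, or 0.24 without estrus replicate 2. Cebpe, the transcription factor of the specific granule genes, was at 1.05, 3.43 and 0.79 FPKM against 0.48, 0.75 and 0.70.

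The list also held receptors and other genes. Cxcr2, the receptor for chemokines that draw neutrophils out of the marrow, was at 14.7, 15.3 and 13.3 FPKM in estrus and at 11.5, 10.9 and 11.5 in diestrus, without overlap but with a log2FC of 0.33. Csf3r, the receptor for the growth factor G-CSF, was at 26.4, 23.8 and 15.4 FPKM against 9.55, 13.9 and 15.7. The cytokine gene Il1b was at 13.7, 10.5 and 6.54 FPKM against 3.99, 6.89 and 6.32. In Csf3r and Il1b estrus replicate 1, not estrus replicate 2, was the highest library, and estrus replicate 3 lay within diestrus. Ly6g, a surface marker of mouse neutrophils, was at 1.17, 4.59 and 1.08 FPKM against 1.05, 0.60 and 0.67, and Wfdc21, a small secreted protein, at 3.19, 10.4 and 4.30 FPKM against 2.95, 2.48 and 2.63. Several genes outside the list are also known from neutrophils and were picked here after their values were seen. They are Cd177, at 2.12, 7.99 and 2.2 FPKM against 1.39, 1.62 and 1.69, Padi4, at 1.58, 2.87 and 1.82 FPKM against 0.89, 0.91 and 1.05, Ms4a3, at 2.92, 7.31 and 2.14 FPKM against 0.93, 1.79 and 1.45, and Lrg1, at 10.5, 16.8 and 9.36 FPKM against 6.68, 5.75 and 9.14.

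**Figure D3:**
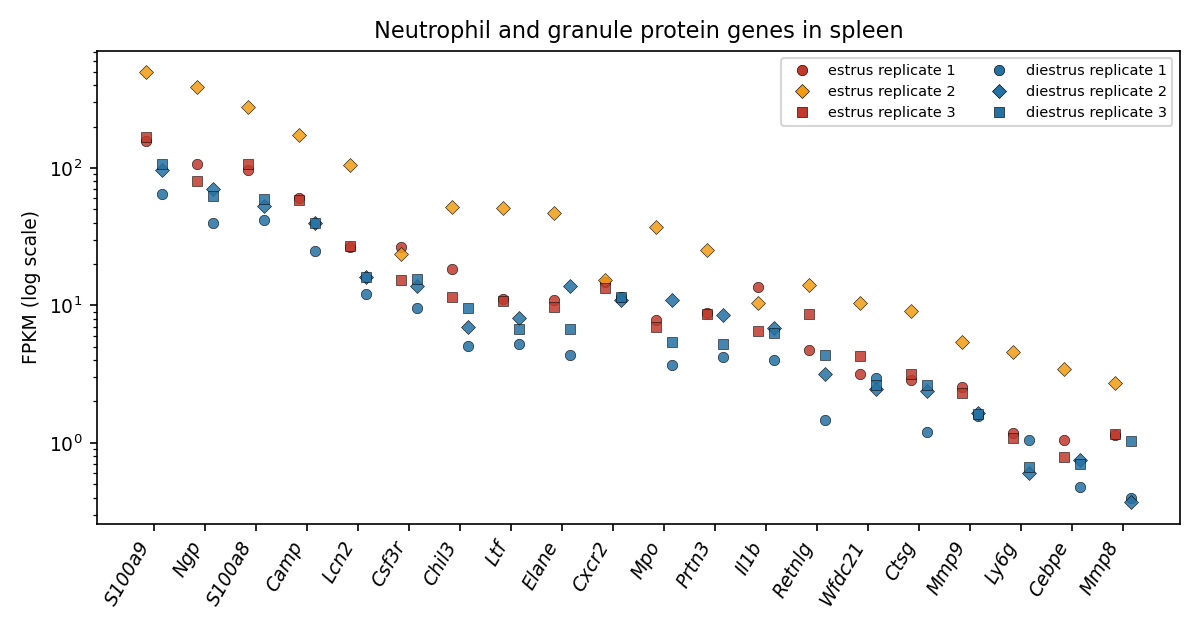
FPKM, on a log axis, of the 20 neutrophil and granule protein genes in each spleen library (red and orange for estrus, blue for diestrus; orange diamonds are estrus replicate 2). S100a9 is the highest, at 65 to 108 FPKM in diestrus and 156 to 497 FPKM in estrus, and for Elane and Mpo diestrus replicate 2 lies above estrus replicates 1 and 3.

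The neutrophil difference moved with other quantities of the libraries. Estrus replicate 2, its highest library, was also the library of the pancreatic genes and of the highest hemoglobin and platelet sums, and the part of these in the result was not tested. The difference was present without that library, and with any single library left out all 20 genes stayed higher in estrus, with a median log2FC between 0.57 and 1.29 and 9 to 18 genes free of overlap, where 37 to 312 of all 12536 genes were. The 18 came without diestrus replicate 2, where 274 of all genes were free of overlap. In the other tissues far fewer members could be tested, 2 in muscle and brown adipose tissue up to 11 in uterus. At most 2 of them were free of overlap towards estrus at any size, in white adipose tissue. Uterus had a median log2FC of 1.16 over its 11, with 1 free of overlap by that rule. In spleen the same rule gave 16 of 20, against 387 of all genes tested (3.09%). The share over all genes of the other tissues was not counted.

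Erythroid genes were mostly higher in estrus but overlapped between the phases in every case. Of 20 tested, 19 were higher, with a median log2FC of 0.75, or 0.56 without estrus replicate 2, and 0 were free of overlap. Hba-a1, an alpha globin of hemoglobin, was at 10719, 26292 and 16555 FPKM in estrus and at 10266, 21498 and 11136 in diestrus, and Hbb-bs, a beta globin, at 6824, 18803 and 10391 FPKM against 6741, 13089 and 10095. Globin genes are near-identical copies, so the share of each is uncertain. Klf1, the transcription factor of red cell precursors, was at 30.7, 40.4 and 30.2 FPKM against 8.16, 51.3 and 12.9. In Klf1, as in Gata1, Epor and Tal1, diestrus replicate 2 was the highest library of all, while diestrus replicates 1 and 3 were the lowest. Without diestrus replicate 2, 14 of the 20 were free of overlap towards estrus, against 274 of all genes tested (2.19%), and the median log2FC was 1.30. Leaving out diestrus replicate 1 instead brought the median to 0.35 with 0 free of overlap, so the erythroid difference hung on which diestrus library was kept.

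Genes of megakaryocytes and platelets were higher in estrus in 15 of 15 cases, with a median log2FC of 0.57, or 0.29 without estrus replicate 2, and 0 were free of overlap. Ppbp, a platelet chemokine, was at 138, 145 and 82.2 FPKM in estrus and at 49.4, 79.5 and 82.8 in diestrus. Pf4, platelet factor 4, was at 58.9, 70.7 and 41.7 FPKM against 26.3, 42.4 and 37.1, and Gp9, a subunit of the receptor for von Willebrand factor, at 18, 20.3 and 12.8 FPKM against 6.76, 14.3 and 8.96. Estrus replicate 3 lay within the diestrus range for these genes. Without it, 10 of 15 were free of overlap by the same rule, against 312 of all genes tested (2.49%).

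Macrophages of the red pulp and marginal zone gave 17 of 17 genes higher in estrus, but the median log2FC was 0.30, or 0.10 without estrus replicate 2, when 13 of 17 were higher. Hmox1, which opens the heme ring, was at 178, 189 and 64.6 FPKM in estrus and at 84.3, 97.98 and 122 in diestrus. Spic, the transcription factor of red pulp macrophages, was at 74.0, 76.0 and 38.2 FPKM against 43.6, 43.7 and 61.1, and C1qa of the complement C1 complex at 153, 187 and 110 FPKM against 101, 122 and 166. Estrus replicates 1 and 2 were high in all 3 genes, and estrus replicate 3 was the lowest library for Hmox1 and Spic. For mesothelium, the covering of the capsule, the summed FPKM of 9 mesothelial genes was 15.8, 17.0 and 3.0 in estrus against 4.6, 5.1 and 7.1 in diestrus. Here too estrus replicate 3 was the lowest library. Its part in the macrophage values was not tested.

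T cell genes went the other way by small amounts. Of 18 tested, 17 were lower in estrus, with a median log2FC of -0.21, or -0.13 without estrus replicate 2. No member reached 0.5 without overlap, and 4 were free of overlap at any size, against 714 of all genes (5.70%) in that direction and 387 (3.09%) in the other. Lck, the kinase that starts T cell receptor signalling, was at 99.0, 94.1 and 116 FPKM in estrus and at 122, 117 and 122 in diestrus (log2FC -0.23, SE 0.09). Cd4, the coreceptor of helper T cells, was at 68.7, 69.0 and 86.6 FPKM against 92.2, 87.5 and 88.9. Cd8a of cytotoxic T cells was at 43.7, 43.4 and 44.8 FPKM against 45.5, 41.9 and 47.1, and Foxp3 of regulatory T cells at 9.72, 7.85 and 11.7 FPKM against 10.4, 12.2 and 8.29. The values of Cd8a and Foxp3 overlapped almost completely.

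Among B cell genes, 10 of 12 were lower, with a median log2FC of -0.08 that became 0.01 without estrus replicate 2. Cd79a, a signalling chain of the B cell receptor, was at 970, 820 and 1105 FPKM in estrus and at 1116, 1023 and 914 in diestrus. Genes of germinal centres, where B cells mutate their antibody genes, were lower in 7 of 8 cases, with a median log2FC of -0.43, or -0.14 without estrus replicate 2. Bcl6, the transcription factor of the germinal centre, was at 27.6, 24.3 and 26.9 FPKM in estrus and at 32.2, 28.9 and 30.2 in diestrus, without overlap but with a log2FC of -0.21. Plasma cell genes were higher in 7 of 9 cases, with a median of 0.12, or 0.04 without estrus replicate 2. Jchain, which joins secreted antibodies, was at 435, 541 and 338 FPKM against 361, 402 and 358. Antigen presentation by MHC class II showed a median of -0.01 over 15 genes, with its invariant chain Cd74 at 5112, 4496 and 5130 FPKM in estrus and at 5108, 5242 and 4666 in diestrus.

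**Figure D4:**
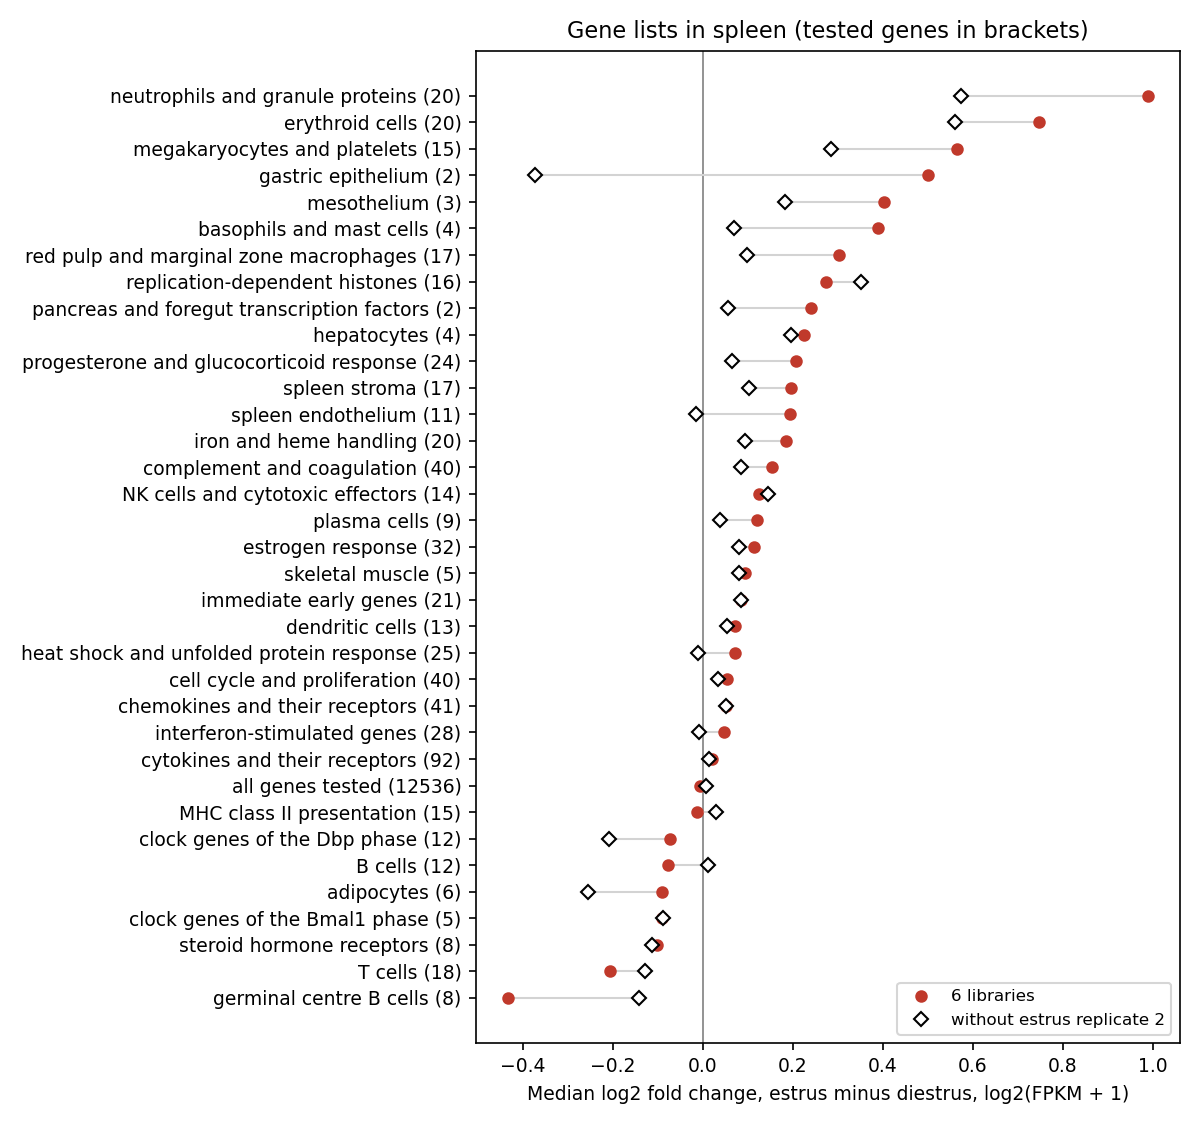
Median log2FC on the log2(FPKM + 1) scale, estrus minus diestrus, of each gene list and of all genes tested, with the number of tested genes in brackets (filled circles for the 6 libraries, open diamonds without estrus replicate 2; pancreatic acini, at 2.93 and 0.31, are left out of the plot). Neutrophil genes have the highest median of the lists plotted, 0.99 and 0.57, and the T cell and germinal centre lists lie below 0 in both.

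Further immune and tissue lists were described in the same way. The median log2FC was 0.13 for 14 genes of NK cells and cytotoxic effectors, 0.07 for 13 of dendritic cells, 0.05 for 28 interferon-stimulated genes, 0.02 for 92 cytokines and their receptors and 0.05 for 41 chemokines and their receptors. Ccl5, a chemokine of cytotoxic cells, was at 312, 303 and 277 FPKM in estrus and at 218, 252 and 280 in diestrus. The interferon-stimulated genes varied mainly within diestrus, as in Irf7, a transcription factor of the interferon response, with 92.5, 92.7 and 79.5 FPKM in estrus against 45.0, 82.5 and 128 in diestrus. Spleen stroma had a median of 0.20 over 17 genes and endothelium one of 0.19 over 11, which became 0.10 and -0.01 without estrus replicate 2. Iron and heme handling had a median of 0.19 over 20 genes, and 34 of 40 genes of complement and coagulation were higher in estrus, with a median of 0.15, or 0.08 without estrus replicate 2. Cd59a, which shields cells from complement, was at 10.1, 11.6 and 9.10 FPKM against 5.26, 8.98 and 6.10, and Itgam, the integrin chain of complement receptor 3 on myeloid cells, at 6.65, 9.73 and 5.15 FPKM against 4.55, 4.56 and 4.75. Lists of few tested genes, namely basophils and mast cells, hepatocytes, skeletal muscle, adipocytes, gastric epithelium, mesothelium and foregut transcription factors, had 2 to 6 tested members each and medians between -0.09 and 0.50. Without estrus replicate 2 gastric epithelium went from 0.50 to -0.37, basophils and mast cells from 0.39 to 0.07, mesothelium from 0.40 to 0.18, adipocytes from -0.09 to -0.26 and the foregut transcription factors from 0.24 to 0.06. Among the mast cell genes Hdc, the enzyme that makes histamine, was free of overlap at 2.02, 3.60 and 1.85 FPKM against 0.62, 1.30 and 1.57.

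Receptors of the hormones that define the phases were scarcely expressed. Esr1, estrogen receptor alpha, was at 0.99, 0.79 and 0.95 FPKM in estrus and at 0.73, 0.75 and 0.64 in diestrus, below the limit for testing. Esr2, estrogen receptor beta, was at 0.15 to 0.33 FPKM and Pgr, the progesterone receptor, at 0.02 to 0.05 FPKM over the 6 libraries. Nr3c1, the glucocorticoid receptor, was at 26.5, 25.8 and 20.8 FPKM against 25.6, 24.3 and 27.7. Of the 8 tested members of this list, which includes coregulators such as Ncor1 and Ncoa3, 7 were lower in estrus, with a median log2FC of -0.10. The estrogen response list was higher in 22 of 32 cases, with a median of 0.11 and 2 of 32 free of overlap at 0.5 or more, against 0.423% of all genes. These genes were Lcn2 and Ltf, which are also neutrophil genes and stand in that list as well. C3, complement component 3, was at 232, 261 and 248 FPKM against 255, 266 and 208, with full overlap. The progesterone and glucocorticoid list was higher in 19 of 24 cases, with a median of 0.21, or 0.06 without estrus replicate 2. Dusp1, a phosphatase of stress signalling and also an immediate early gene, was at 18.5, 19.2 and 14.4 FPKM against 9.92, 11.4 and 12.9 (log2FC 0.56, SE 0.13).

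Lists that follow handling and time of day were given for comparison. The 21 immediate early genes had a median log2FC of 0.09 and the 25 genes of heat shock and the unfolded protein response one of 0.07. Clock genes of the Bmal1 phase had a median of -0.09 over 5 genes and those of the Dbp phase one of -0.07 over 12. Dbp, a clock-driven transcription factor, was at 9.07 FPKM in estrus replicate 1 and at 14.3 in diestrus replicate 2, and at 23.6 to 27.6 in the other libraries. The libraries of both phases were thus spread in the clock genes.

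Among single genes, 25 higher and 8 lower in estrus were free of overlap with a log2FC of at least 0.5 both with and without estrus replicate 2, and 2 of each are predicted or unnamed. Lower genes without overlap at this size were 8 of all tested (0.0638%), and 14 (0.112%) without estrus replicate 2. Vmn2r96, a pheromone receptor of the vomeronasal family, was at 0.77, 1.37 and 2.23 FPKM in estrus and at 9.24, 11.9 and 4.11 in diestrus (log2FC -1.88, SE 0.36, and -1.88 without estrus replicate 2). It was at no more than 0.49 FPKM in any library of another tissue. The vomeronasal receptors form a large family of close copies, so the source of these reads is uncertain. Eps8l1, a regulator of actin, was at 2.75, 5.14 and 9.87 FPKM against 17.5, 16.7 and 10.3 (log2FC -1.29, SE 0.37). The gap between the phases in Eps8l1 was small, since estrus replicate 3 nearly reached diestrus replicate 3. Trat1, an adaptor of the T cell receptor that is not in the T cell list, was at 8.03, 6.74 and 7.40 FPKM against 12.7, 9.84 and 11.7 (log2FC -0.56, SE 0.11). Fam240a was at 0.50, 0.69 and 0.77 FPKM against 1.5, 1.65 and 1.53. Grem1, a secreted antagonist of BMP signals, and Uprt, a relative of enzymes of pyrimidine salvage, had a log2FC of -0.51 and -0.61.

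The higher genes of this kind named below stand outside the histone and neutrophil lists. Whether some of them come from neutrophils or platelets was not tested. Klra23, a receptor of the Ly49 family of NK cells, was at 10.6, 8.23 and 9 FPKM in estrus and at 6.05, 5.07 and 6.46 in diestrus (log2FC 0.58, SE 0.12), whereas Klra8 of the same family was at 5.72, 5.30 and 1.57 FPKM against 3.75, 2.74 and 3.81. Genes of this family are close copies, and their values are uncertain. Gdf15, a stress-induced hormone of the TGF-beta family, was at 1.93, 1.33 and 1.88 FPKM against 0.62, 0.74 and 0.80. Ly6g6f was at 3.26, 5.25 and 3.62 FPKM against 1.63, 2.35 and 1.69, and Mylk3, a myosin light chain kinase best known from heart, at 4.37, 6.84 and 3.68 FPKM against 1.58, 2.41 and 2.35. These genes kept a log2FC of 0.63 to 0.76 without estrus replicate 2. Chac2, an enzyme that breaks down glutathione, was at 9.85, 10.7 and 8.72 FPKM against 4.78, 8.55 and 4.87, and Stfa2l1, of the stefin family of protease inhibitors, at 1.34, 1.51 and 1.58 FPKM against 0.51, 0.68 and 1.02. For Chac2 diestrus replicate 2 lay close to estrus.

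**Figure D5:**
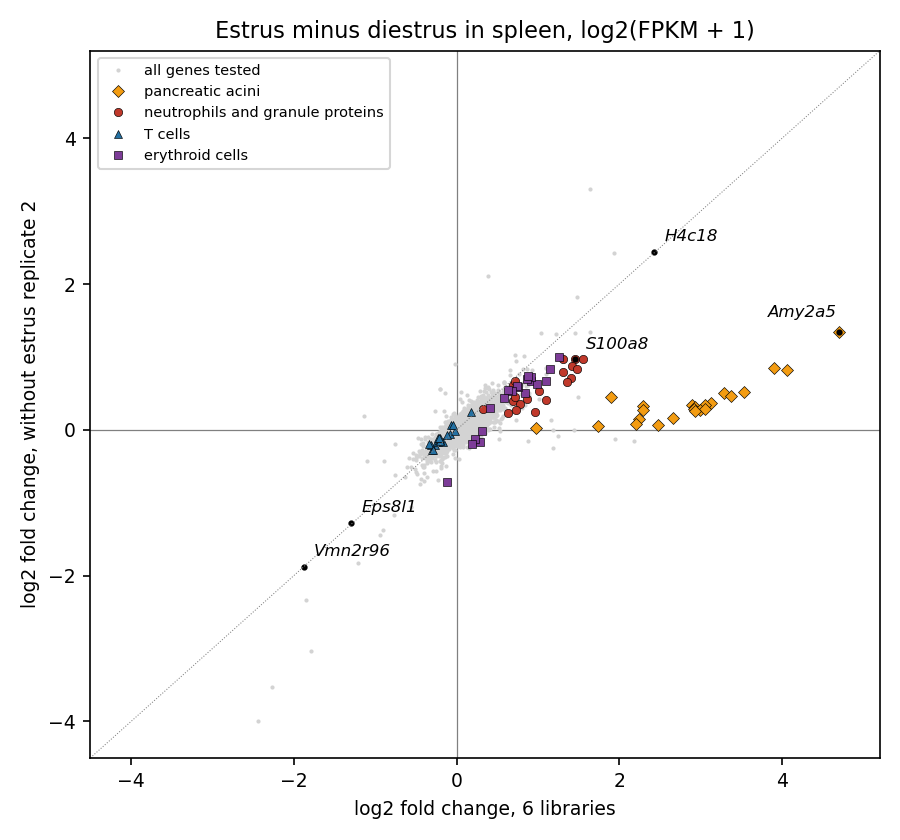
Log2FC of the 12536 tested genes on the log2(FPKM + 1) scale, estrus minus diestrus, with all 6 libraries on the horizontal axis and without estrus replicate 2 on the vertical axis (dotted line, equal values). Pancreatic acinar genes drop towards 0 on the vertical axis, neutrophil genes keep values between 0.22 and 0.97, and H4c18 and Vmn2r96 lie on the dotted line.

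Whether the spleen differed from the other tissues was tested as the spleen effect minus the mean effect of the other 14 tissues, in 1 limma fit of the 90 libraries. The study's text has the tissues of a phase taken from the same mice. Neither this fit nor the alternative below allowed for that, as both treated the libraries as independent. This called 18 genes (0.144% of those tested), 16 of them higher. Beside H4c18, Chil3 and Retnlg, the higher genes included pancreatic enzymes and the erythroid gene Hemgn. The lower genes were Vmn2r96 and the pseudogene Ccl19-ps1, which was at 0, 26.4 and 0.17 FPKM in estrus and at 21.6, 9.20 and 21.3 FPKM in diestrus, so that estrus replicate 2 was the highest library. For 17 of the 18 the spread among spleen libraries was above the spread that the fit shared over all tissues, so their p-values are too small. An alternative chosen after seeing the data gave each tissue a spread of its own. With it H4c18 alone was called (adjusted p = 1.62e-09, Welch-type t test on separate limma fits of the tissues). Its SD was 0.14 in the spleen fit and 0.57 in the shared fit, with every diestrus spleen library listed at 0. This p-value thus rests in part on values at 0 and on the division of reads among H4 copies.

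With 3 libraries per phase, an exact permutation test of a single gene cannot give a p below 0.1. The labels describe the 3 libraries of a phase as replicates and the study's methods as separate mice.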

How the data were processed

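RNA from frozen tissue was extracted with Trizol, made into libraries with a TruSeq RNA kit and sequenced on the BGISEQ-500. Its capture of histone mRNA, H4c18 included, was not tested. The deposited values are FPKM per Entrez gene, 20414 genes by 90 libraries; per the study's methods and the submitters' processing notes, the authors cleaned reads with SOAPnuke and used Bowtie2 2.2.5, RSEM 1.2.8 and build GRCm38.p5. FPKM from RSEM divides reads shared by similar genes by estimate, which touches histone, globin, Ly49 and vomeronasal genes. The study's DEGSeq needs counts, so limma 3.58.1 (R 4.3.3) with an intensity trend was fitted on log2(FPKM + 1) to the 6 spleen libraries, with Benjamini-Hochberg adjustment over the 12536 genes whose spleen mean reached 1 FPKM. It was tested on simulated data with independent normal noise for each gene. The simulation held no library like estrus replicate 2 and no genes that vary together, so it does not cover these features. The study's limits of DEGs were kept. Symbols came from a RefSeq table of GRCm38.p6, which named 20265 genes and left 149 unnamed. Python 3.11.15 (numpy 2.4.6, pandas 2.3.3, matplotlib 3.10.9) was used for depth, promoters and plots.

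Members of the comparison and the 36 gene lists were chosen with earlier results of these data known, and the lists were given no test. The genes named were the called gene, the 12 higher and 12 lower genes with the smallest unadjusted p among those free of overlap with a log2FC of at least 0.5 with and without estrus replicate 2 (only 6 lower genes qualified), genes listed at 0 throughout a phase, the 3 most abundant members of each list and up to 4 free of overlap, Esr1, Esr2 and Pgr, and the 8 genes in which estrus replicate 2 lay farthest above the rest. All other genes, among them the remaining neutrophil, erythroid, platelet and T cell genes and Klra8, were named after their values were seen. The labels give the mice 10 weeks of age, and the study's methods give a different age. Alternatives were another pseudocount (0.1), no filter or one at 5 FPKM, median and quantile scaling, no intensity trend, the replicate number as a block, a fit of all 90 libraries and leaving out each library. Values of some list members are not reported here.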

Additional observations from a re-analysis of the deposited data

Results flagged for a closer look

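In the fit of all 90 libraries, the spleen effect of 9 named genes differed from the mean effect of the other 14 tissues. That fit took the libraries as independent, although the study's text has the tissues of a phase from the same mice. The difference on the log2(FPKM + 1) scale was -1.84 for Vmn2r96 (adjusted p = 1.46e-13 from limma), 1.52 for Chil3 (adjusted p = 2.00e-05), 1.24 for Retnlg and 2.40 for H4c18 (adjusted p = 0.00539). For the pancreatic genes it was 4.81 for Amy2a5, 3.98 for Cela2a, 3.55 for Pnlip, 4.08 for Ctrb1 and 3.05 for Cpa1, all of which rested on estrus replicate 2. With a spread of its own for each tissue the adjusted p, from the Welch-type t test, was 0.719 to 0.834 for these genes other than H4c18. For H4c18, Amy2a5, Cela2a, Pnlip and Cpa1, listed at 0 in all diestrus spleen libraries, the size of the difference is set by the pseudocount and is no fold. Ctrb1 was at 0.08 FPKM or less in diestrus, so the pseudocount weighs on its difference as well.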

How the results depend on the processing

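With 6 libraries the test had few degrees of freedom, and with a depth that was only approximated low genes were the least certain. H4c18 was the only DEG under each alternative except the filter at 5 FPKM, which removed it and left 0 DEGs, and the fit of all 90 libraries, which gave 27 DEGs and 29 genes lower at an unadjusted p under 0.05. That filter left 150 genes higher at an unadjusted p under 0.05, and 25 higher and 3 lower without overlap. Without a filter, 396 genes were higher and 363 lower at an unadjusted p under 0.05, and quantile normalization gave 349 lower. A pseudocount of 0.1 gave 16 lower genes without overlap. Leaving out 1 library at a time gave 124 to 827 genes higher and 97 to 364 lower at an unadjusted p under 0.05, and 37 to 312 higher and 11 to 34 lower without overlap. The highest counts of higher genes came without estrus replicate 3. Replicate numbers did not pair the samples (correlation of deviations 0.02, 0.09 and -0.22), and with the replicate block 373 genes were higher and 189 lower at an unadjusted p under 0.05. The 18 genes that differed from the other tissues became 5 with a pseudocount of 0.1, 6 without spleen estrus replicate 2, 14 without brown adipose tissue estrus replicate 3, 11 without ovary and uterus and, added after seeing the data, 1 with a spread of its own for each tissue; the causes were not tested. H4c18 missed the limit there with a pseudocount of 0.1 (difference 5.54, a size set by the pseudocount, adjusted p = 0.133 from limma). All 241 values of 18 named genes under the alternatives kept their direction, as did 469 of 487 list medians.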
